A study of Triticum aestivum with 18 samples.

Results

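Transcript BJ299669, which the study names as a seed storage protein, is measured on the Affymetrix Wheat Genome Array by 2 probe sets, Ta.154.3.S1_at and Ta.154.3.S1_x_at. Both were chosen on measured values of these arrays, a rise with ABA in the embryo and none with H2O2, so their levels are given here as a description with no test. The other 5 probe sets whose identifier begins like theirs, up to the second dot, were found by that identifier alone and are treated as relatives: Ta.154.1.S1_a_at and Ta.154.1.S1_x_at (accession BJ298893), Ta.154.4.S1_at and Ta.154.4.S1_x_at (CD910354) and Ta.154.5.S1_x_at (BJ292464). These 7 are among 61179 wheat probe sets on the array, of which 57992 passed a filter on low signals, all 7 included. The study's tables place BJ299669 in UniGene cluster Ta.66336 and the 5 relatives in cluster Ta.54396. The relatives are not independent of the listed pair, because all share the same arrays and may share sequence. A probe set ending in _at is meant to match 1 transcript, one ending in _a_at several transcripts of 1 gene, and one ending in _x_at may also bind unrelated transcripts.

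Seeds of bread wheat were imbibed for 16 h in pure water (CK), in 100 mg/L ABA or with 100 μmol H2O2. Embryo and endosperm were then harvested apart, which gave 6 groups: CK_embryo, ABA_embryo, H2O2_embryo, CK_endosperm, ABA_endosperm and H2O2_endosperm. Each group has 3 arrays, labelled as biological replicates, and the water controls carried no other agent. All arrays are of 16 h and none is of dry seed. Words such as rose and fell therefore mean higher or lower than CK at that time. A gain under ABA and a loss in water cannot be told apart. Because ABA delays germination, treatment and stage of germination cannot be told apart either. Each value below is a MAS5 signal, the linear brightness of a probe set after each array was scaled to a common trimmed mean.

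Storage proteins are laid down in the developing grain and broken down after germination to feed the seedling. In cereals most of this store lies in the endosperm, and the embryo and aleurone hold stores of their own. Abscisic acid (ABA) is the hormone of seed maturation and dormancy, which sustains storage protein and late embryogenesis transcripts and delays germination. H2O2 is a reactive oxygen species that promotes germination in many seeds.

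The median signal of the wheat probe sets was 59.0 to 81.0 on 17 arrays and 137.9 on H2O2_embryo replicate 1, which therefore stands apart. Its log2 signals correlated with those of the other H2O2_embryo arrays at 0.828 and 0.832, while those arrays correlated with each other at 0.916. The labelled tissues were checked against marker genes found through gene synonyms. The summed signal of 19 embryo marker probe sets (1 for wheat germ agglutinin, the others for histones) was 69680 to 73530 in CK_embryo and 44040 to 45370 in CK_endosperm. Histone signals were not confined to the embryo, and some were higher in endosperm, such as Ta.29542.1.S1_x_at at 718.6 in CK_embryo and 1072 in CK_endosperm. The list thus separates the tissues in its sum and not in each member. The summed signal of 21 endosperm marker probe sets (gliadins, glutenins, purothionins and amylase inhibitors) was 431.7 to 685.2 in CK_embryo and 1245 to 1383 in CK_endosperm. The sum of these endosperm transcripts was thus higher in endosperm, but on average per probe set they stayed below the median of all wheat probe sets in both tissues. Some went the other way, such as Ta.58.1.S1_at, with means of 57.3 in CK_embryo and 14.2 in CK_endosperm. In the limma fit described below, 5 of 19 tested probe sets of each marker list were called between the CK tissues. Of all probe sets, 11.2% were called higher in CK_embryo and 6.96% lower. A list of prolamins that includes avenin-like proteins summed to 5465 to 5796 in CK_embryo and 4891 to 5326 in CK_endosperm. Most of both sums came from 1 avenin-like probe set, Ta.27777.1.S1_at, with means of 5189 in CK_embryo and 3984 in CK_endosperm. In whole tissue, fewer cells of a type and less RNA per cell cannot be told apart.

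Both BJ299669 probe sets were dim in the embryo of water-imbibed seeds, bright in the endosperm of all treatments, and intermediate in the ABA-treated embryo. In CK_embryo, Ta.154.3.S1_at read 109, 80.0 and 118 on replicates 1 to 3. In ABA_embryo it read 7472, 8103 and 8716. In H2O2_embryo it read 71.0, 86.2 and 49.6. The ABA arrays thus lay far above both other sets of embryo arrays, while the CK and H2O2 arrays overlapped. The mean was 102.3 ± 19.8 in CK_embryo, 8097 ± 622 in ABA_embryo and 68.9 ± 18.4 in H2O2_embryo (SD, n = 3 each). On the log2 scale ABA_embryo exceeded CK_embryo by 6.32, which is 80.1-fold and rank 5 of the 57992 probe sets. H2O2_embryo differed from CK_embryo by -0.59 in log2, a ratio of 0.666.

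In the endosperm the signal of Ta.154.3.S1_at was high with and without treatment. The 3 CK_endosperm arrays read 31707, 33449 and 30872. The ABA_endosperm arrays read 31556, 33283 and 34976, and the H2O2_endosperm arrays read 30250.2, 28713 and 30096. The ABA arrays overlapped the CK arrays, and all H2O2 arrays lay below all CK arrays. The means were 32010 ± 1315 in CK_endosperm, 33270 ± 1710 in ABA_endosperm and 29690 ± 847 in H2O2_endosperm (SD, n = 3 each), differences from CK of 0.06 and -0.11 in log2. From low to high the order was H2O2_embryo, CK_embryo, ABA_embryo, H2O2_endosperm, CK_endosperm and ABA_endosperm, with overlap between the first and second and between the fifth and the highest.

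Ta.154.3.S1_x_at showed the same steps. It read 209, 178 and 194 in CK_embryo, 10088, 9435 and 10204 in ABA_embryo, and 287, 123 and 165 in H2O2_embryo. The H2O2 arrays lay on both sides of the CK arrays, and the highest of them was replicate 1, the array that stands apart. The means were 193.5 ± 15.6, 9909 ± 414.5 and 191.4 ± 85.2 in this order (SD, n = 3 each), and ABA_embryo exceeded CK_embryo by 5.68 in log2, which is 51.3-fold and rank 17. H2O2_embryo differed from CK_embryo by -0.10 in log2, and by -0.44 without replicate 1.

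In the endosperm Ta.154.3.S1_x_at read 35248, 34955 and 35296 in CK, 47916, 40128 and 44756 with ABA, and 35388, 38130.1 and 36118 with H2O2. All ABA arrays and all H2O2 arrays lay above the CK arrays. The ABA_endosperm mean of 44270 ± 3917 exceeded the CK_endosperm mean of 35170 ± 185 (SD, n = 3 each) by 0.33 in log2, or 1.25-fold, and the H2O2_endosperm mean of 36550 ± 1420 by 0.05. The probe set that can also bind other transcripts was thus higher on all ABA_endosperm arrays, whereas Ta.154.3.S1_at, meant to match this transcript alone, was not.

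**Figure D1:**
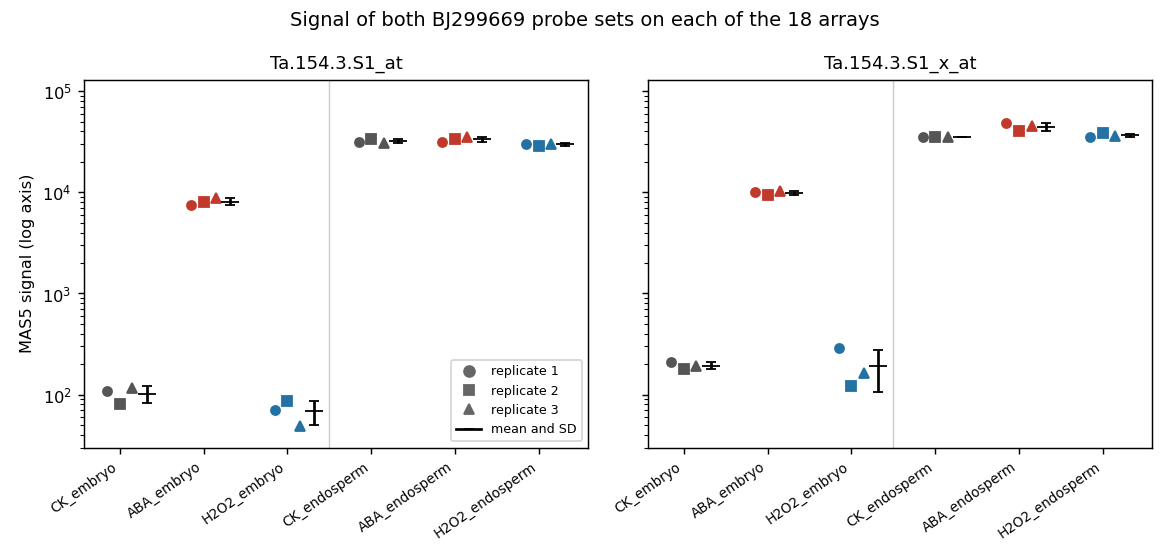
MAS5 signal (log axis) of Ta.154.3.S1_at and Ta.154.3.S1_x_at on each of the 18 arrays, by group, with symbols for the replicate numbers and black marks for mean and SD (n = 3). The ABA_embryo arrays sit near 8097 and 9909 on average, between the other embryo groups and all endosperm groups.

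With ABA the embryo did not reach the endosperm. ABA_embryo stood at 24.3% of ABA_endosperm in Ta.154.3.S1_at and at 22.4% in Ta.154.3.S1_x_at, taken from the differences of mean log2 signals. In water the corresponding shares were 0.315% and 0.549%, and with H2O2 they were 0.226% and 0.492%. The log2 difference between tissues of Ta.154.3.S1_at therefore went from -8.31 in CK to -2.04 with ABA and -8.79 with H2O2. Of all probe sets past the filter, these 2 had the highest ABA effect in embryo relative to endosperm, 6.27 and 5.35 in log2, which is part of the pattern they were chosen for.

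The relatives were tested with limma in 1 fit of all 18 arrays, with p-values adjusted over the 57992 probe sets by the Benjamini-Hochberg method and 0.05 as the threshold. In ABA_embryo against CK_embryo all 5 relatives rose, against a background of 2.66% of all probe sets called higher. Their folds were 51.1 (95% confidence interval 37.2 to 70.4) for Ta.154.4.S1_at, 46.1 (38.1 to 55.9) for Ta.154.4.S1_x_at and 44.0 (37.0 to 52.4) for Ta.154.1.S1_a_at. Ta.154.1.S1_x_at rose 32.8-fold (24.2 to 44.3) and Ta.154.5.S1_x_at 31.1-fold (24.5 to 39.4). The highest adjusted p of the 5 was 4.28e-13 in limma, and the arrays of both groups did not overlap in any of them.

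The values by array show how tight this was. Ta.154.1.S1_a_at read 354, 347 and 358 in CK_embryo and 15279.8, 17044 and 14424 in ABA_embryo. Ta.154.4.S1_at read 219, 120.4 and 153 in CK_embryo and 7649, 8628 and 8189.8 in ABA_embryo. Ta.154.5.S1_x_at went from 679, 682 and 767 to 21536, 22967 and 21492. In each of these, the lowest ABA array was over an order of magnitude above the highest CK array.

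In the endosperm, ABA changed the relatives less on the log2 scale and not all alike. Of the 5, 2 rose in ABA_endosperm against CK_endosperm, where 3.26% of all probe sets were called higher. Ta.154.4.S1_x_at read 22372, 22060.4 and 23521 in CK and 38773, 29816 and 34286 with ABA, a 1.51-fold rise (1.24 to 1.82, adjusted p = 0.00728 in limma). Ta.154.1.S1_a_at read 40702, 39596 and 40550.1 in CK and 65741, 47248 and 53752 with ABA, a 1.37-fold rise (1.15 to 1.63, adjusted p = 0.0245 in limma). In both, the 3 ABA arrays lay above the 3 CK arrays. Without ABA_endosperm replicate 1, the highest array of that group in both, the adjusted p was 0.0517 for Ta.154.4.S1_x_at and 0.149 for Ta.154.1.S1_a_at in limma, and no relative was called.

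Ta.154.4.S1_at had the highest ratio of the relatives in ABA_endosperm, 1.64 (1.19 to 2.26), but its adjusted p of 0.057 in limma missed the threshold. It read 17061, 16548 and 18748 in CK and 31786, 26358 and 27964 with ABA, with no overlap, and without H2O2_embryo replicate 1 its adjusted p was 0.000399 in limma. Ta.154.1.S1_x_at had a ratio of 1.18 (0.868 to 1.59, adjusted p = 0.632 in limma), from 30813, 30698 and 30751 in CK to 42351, 32318 and 34448 with ABA. Ta.154.5.S1_x_at had a ratio of 0.939 (0.740 to 1.19, adjusted p = 0.843 in limma), and its arrays overlapped, with 63313, 77936 and 67191 in CK and 70206, 60335 and 64851 with ABA. Its log2 difference of -0.09 turned to 0.29 after quantile normalization, which moved the median of all probe sets from -0.10 to 0.00. In the MAS5 signals, a rise in the embryo with overlapping ABA and CK arrays in the endosperm thus described Ta.154.3.S1_at and its relative Ta.154.5.S1_x_at. It did not describe the whole group, since 2 relatives passed the test in the endosperm as well. Neither of these calls held without ABA_endosperm replicate 1. Quantile normalization also moved the endosperm difference of Ta.154.3.S1_at, from 0.06 to 0.27 in log2.

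Within arrays, probe sets of the group parted from each other in the endosperm. The log2 signal of Ta.154.4.S1_x_at minus that of Ta.154.5.S1_x_at ran from -1.82 to -1.50 in CK_endosperm, -1.65 to -1.51 in H2O2_endosperm and -1.02 to -0.86 in ABA_endosperm. The same difference between Ta.154.4.S1_at and Ta.154.3.S1_at ran from -1.02 to -0.72 in CK_endosperm and from -0.34 to 0.01 in ABA_endosperm. The ABA arrays lay apart from the CK arrays in both pairs, which were picked after their values were seen and were not tested. These are unequal changes on the same arrays. They do not show which transcript stayed the same.

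**Figure D2:**
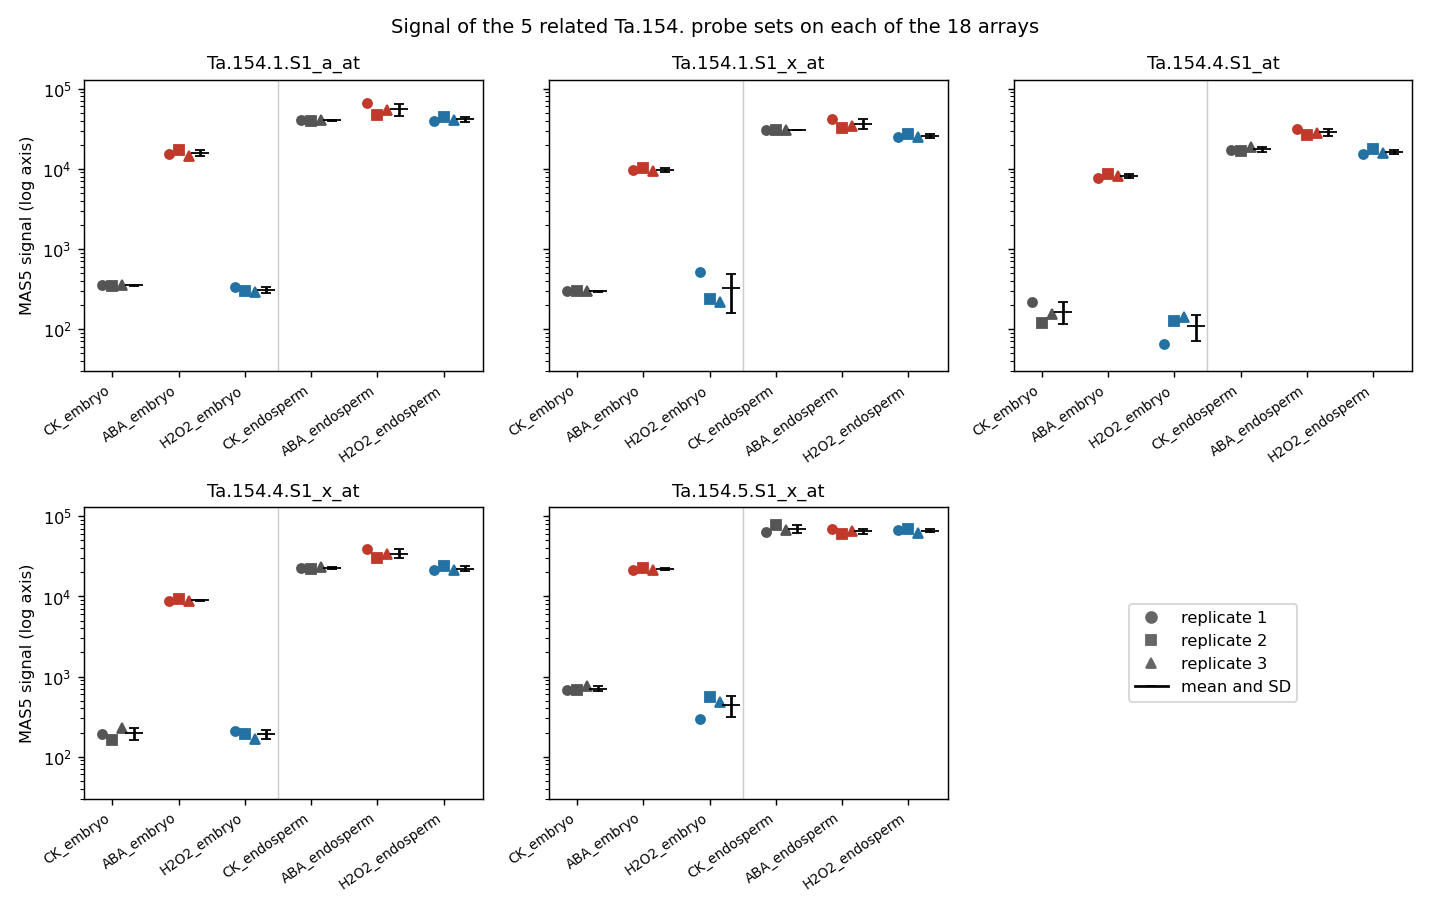
MAS5 signal (log axis) of the 5 related probe sets on each of the 18 arrays, by group, with symbols for the replicate numbers and black marks for mean and SD (n = 3). Every ABA_embryo array lies above every CK_embryo and H2O2_embryo array and below every endosperm array, and ABA_endosperm stands above CK_endosperm in all but Ta.154.5.S1_x_at.

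H2O2 moved none of the relatives past the threshold. In H2O2_embryo against CK_embryo 0 of 5 were called in limma, and 0.343% of all probe sets were called lower. At an unadjusted p under 0.05 in limma there were 2, and with significance analysis of microarrays (SAM) 0. SAM is the test the methods name, but the version run here was coded anew. It called 0 of all probe sets in this comparison. The study's own SAM run reported many changed genes over both H2O2-treated tissues, so the SAM counts here do not stand for it. The ratios were 0.606 (0.478 to 0.770, adjusted p = 0.0549) for Ta.154.5.S1_x_at, 0.656 (0.477 to 0.903, adjusted p = 0.241) for Ta.154.4.S1_at and 0.869, 0.997 and 0.980 for Ta.154.1.S1_a_at, Ta.154.1.S1_x_at and Ta.154.4.S1_x_at in limma. Ta.154.5.S1_x_at read 298, 549 and 484 with H2O2, all below its CK_embryo arrays, and the lowest of them was replicate 1. Ta.154.1.S1_a_at, at 334, 297 and 291, also lay below all CK_embryo arrays. Ta.154.1.S1_x_at read 511, 237 and 215, so that replicate 1 was the only H2O2 array above those of CK. Without that array 2 relatives were called lower in limma, Ta.154.5.S1_x_at at -0.46 in log2 (adjusted p = 0.00705) and Ta.154.1.S1_x_at at -0.40 (adjusted p = 0.0245).

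In H2O2_endosperm against CK_endosperm 0 of 5 relatives were called in limma (0 at an unadjusted p under 0.05 and 0 with SAM), and 2.38% of all probe sets were called lower. The ratios lay between 0.830 (0.613 to 1.12) in Ta.154.1.S1_x_at and 1.03 (0.863 to 1.22) in Ta.154.1.S1_a_at. Ta.154.1.S1_x_at was the one whose arrays did not overlap: it read 24694, 27178 and 24744 with H2O2, all below CK, and was called when H2O2_embryo replicate 1 was left out (adjusted p = 0.026 in limma). The H2O2 effect was called as different between the tissues in 0 of 5 in limma (1 at an unadjusted p under 0.05), with 2.12% of all probe sets called lower in that comparison.

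**Figure D3:**
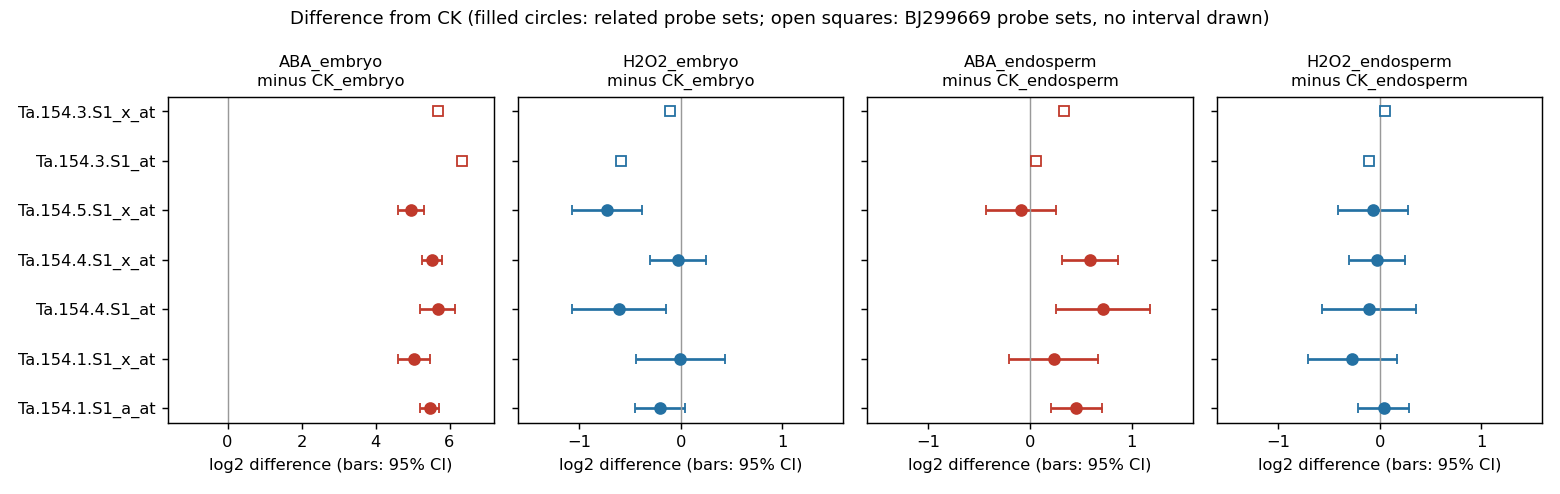
Log2 difference from CK of the 7 probe sets for ABA and H2O2 in embryo and in endosperm; filled circles with 95% confidence intervals are the relatives, and open squares are the BJ299669 probe sets. The ABA_embryo panel has a wider axis: its values run from 4.96 to 6.32, and those of the other panels from -0.72 to 0.72.

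Set against each other, both treatments differed in the embryo in all 5 relatives: ABA_embryo was 32.9-fold (Ta.154.1.S1_x_at) to 78.0-fold (Ta.154.4.S1_at) higher than H2O2_embryo, where 4.83% of all probe sets were called higher. For the BJ299669 probe sets the ratios were 120.3 and 55.1. In the endosperm 2 of 5 relatives were higher with ABA than with H2O2, where 1.71% of all probe sets were called higher: Ta.154.4.S1_at 1.76-fold (adjusted p = 0.0441 in limma) and Ta.154.4.S1_x_at 1.53-fold (adjusted p = 0.00885 in limma). Neither call held without ABA_endosperm replicate 1, when 0 of 5 were called, and without H2O2_embryo replicate 1 the count was 4. The call of Ta.154.4.S1_at was also lost after quantile normalization (adjusted p = 0.33 in limma) and with a floor of 32 (adjusted p = 0.0791 in limma). It was lost with most of the single arrays left out as well. These comparisons share the ABA and H2O2 arrays with those against CK and add no separate evidence.

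On the log2 scale the ABA effect itself was larger in embryo than in endosperm in all 5 relatives, by the interaction term of the fit. In that comparison 1.36% of all probe sets were called higher. The ratio of the embryo fold to the endosperm fold was 33.1 (23.6 to 46.3) in Ta.154.5.S1_x_at, 32.2 (25.2 to 41.2) in Ta.154.1.S1_a_at, 31.1 (19.8 to 48.9) in Ta.154.4.S1_at, 30.6 (23.4 to 40.2) in Ta.154.4.S1_x_at and 27.9 (18.2 to 42.8) in Ta.154.1.S1_x_at. The intervals overlap throughout. The highest adjusted p was 2.79e-09 in limma. These are ratios over unlike CK levels. In linear means Ta.154.4.S1_at went from 164.3 in CK_embryo to 8156 in ABA_embryo, and from 17450 in CK_endosperm to 28700 in ABA_endosperm. In such linear steps it and Ta.154.4.S1_x_at gained more in endosperm. Ta.154.1.S1_a_at gained about equally, and Ta.154.1.S1_x_at and Ta.154.5.S1_x_at gained more in embryo.

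All 5 relatives were lower in embryo than in endosperm in each treatment. In CK the embryo stood at 0.855% to 1.02% of the endosperm, where 6.96% of all probe sets were called lower. With ABA it stood at 26.2% (Ta.154.4.S1_x_at) to 33.8% (Ta.154.5.S1_x_at), where 6.39% were called lower. With H2O2 it stood at 0.644% to 1.16%, where 9.62% were called lower. The highest adjusted p in these comparisons was 4.15e-06 in limma, for Ta.154.4.S1_at with ABA. The BJ299669 probe sets, at 22.4% and 24.3% with ABA, lay just below the range of the relatives.

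To see whether transcripts bright in the endosperm were in general brighter in the ABA-treated embryo, probe sets outside these 7 with a mean of at least 10000 in CK_endosperm and at most 500 in CK_embryo were taken. There were 19, and their CK_embryo means were 0.0301% to 3.88% of their CK_endosperm means (median 0.477%). In ABA_embryo the shares were 0.0757% to 73.2% with a median of 1.05%, in H2O2_embryo the median was 0.421%, and 14 of the 19 were called higher in ABA_embryo than in CK_embryo, beside 2.66% of all probe sets. Because a low CK_embryo signal was part of this choice, the count is a description and no test. All 19 log2 differences of ABA_embryo from CK_embryo were above 0, from 0.10 to 5.25. In 7 of the 19 the ABA change was under 1 in log2. The 7 probe sets of the group went from 0.319% to 1.02% in CK_embryo to 25.3% to 46.7% in ABA_embryo, and 3 of the 19 others reached the lowest of these shares: Ta.20518.3.S1_at (73.2%), Ta.14574.2.S1_x_at (43.0%) and TaAffx.116853.1.S1_at (34.9%). The size of the change thus varied on the same ABA_embryo arrays. The smallest of the 19 was that of Ta.5650.1.S1_a_at, with 0.978% in CK_embryo and 1.03% in ABA_embryo. All these shares are of the CK_endosperm mean. In ABA_endosperm Ta.5650.1.S1_a_at itself stood at only 44.8% of that mean, so its embryo share of the ABA_endosperm level was higher with ABA.

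**Figure D4:**
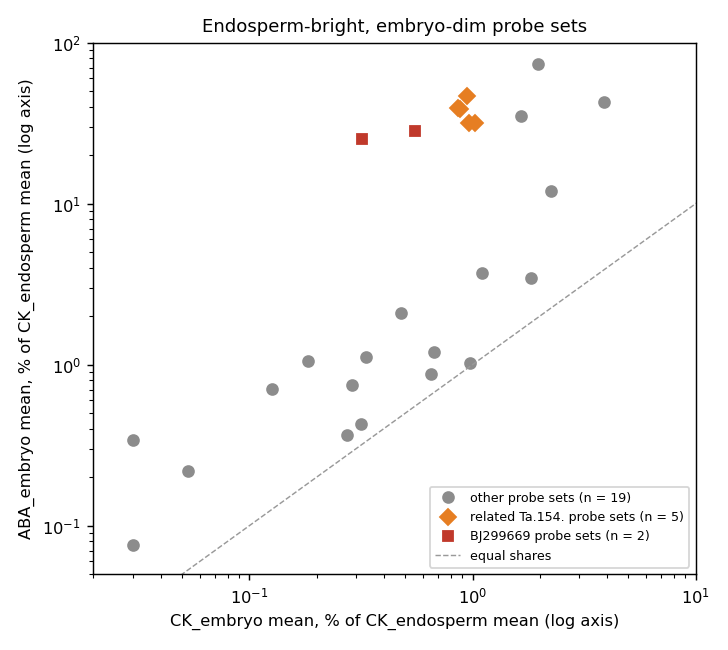
CK_embryo mean (x) and ABA_embryo mean (y), each as percent of the CK_endosperm mean and on log axes, for the 19 other probe sets that are bright in CK_endosperm and dim in CK_embryo (circles), the 5 relatives (diamonds) and the 2 BJ299669 probe sets (squares). All points of the group lie between 25.3% and 46.7% on the y axis, and 16 of the 19 others lie below them.

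The prolamins, which form the gluten of the wheat grain, were not called in the ABA-treated embryo. Of 17 probe sets for gliadins, low-molecular-weight glutenins and avenin-like proteins, 16 passed the filter, and 0 of them were called in limma in ABA_embryo against CK_embryo (0 at an unadjusted p under 0.05 and 0 with SAM), with a median log2 difference of 0.04 beside -0.05 for all probe sets. Their 3 largest differences were 1.09 (Ta.160.2.A1_at), -0.79 (Ta.27777.1.S2_s_at) and 0.56 (Ta.905.2.S1_x_at). Of 15 probe sets for amylase inhibitors, purothionins and serpins 14 passed the filter and 0 were called in limma (1 at an unadjusted p under 0.05 and 1 with SAM), with a median of 0.00 and extremes of 2.15 (Ta.1314.1.S1_at), -1.67 (Ta.58.1.S1_at) and 1.17 (Ta.817.1.S1_a_at). Of all probe sets 2.66% were called higher and 3.08% lower in this comparison. In lists of 16 and 14, a count of 0 is near that share and sets neither list apart. Apart from the avenin-like Ta.27777.1.S1_at, with a mean of 5189 in CK_embryo and 5439 in ABA_embryo, no member of either list had a CK_embryo mean above 116.8 (Ta.160.2.S1_x_at).

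Maturation proteins, which accumulate late in seed development and protect the seed from drying, rose with ABA in both tissues. Of 10 probe sets for Em proteins, Rab15, LEA1 and COR410, 9 were called higher in ABA_embryo and 7 in ABA_endosperm in limma (9 and 2 with SAM), beside 2.66% and 3.26% of all probe sets, with median log2 differences of 2.70 and 1.81. All 10 had the larger log2 difference in embryo. The ABA effect was called as different between the tissues in 6 of 10 in limma, beside 1.36% of all probe sets called higher and 1.28% lower. A larger ABA effect in embryo was thus not particular to the storage protein group. COR410 (Ta.16419.1.S1_at) was called in neither tissue, at 0.22 and -1.22 in log2, and the Rab15 probe sets Ta.2704.1.S1_at and Ta.2704.1.S1_x_at were not called in the endosperm, at 1.57 and 1.35. With H2O2 0 were called in the embryo in limma (3 at an unadjusted p under 0.05 and 0 with SAM), and 2 were called lower in the endosperm, the Em protein probe sets Ta.25025.1.S1_at and Ta.25025.1.S1_x_at, at -0.76 and -0.80 in log2 (0 with SAM), where 2.38% of all probe sets were called lower. SAM called 0 of all probe sets in that embryo comparison and 1 in that endosperm comparison. The largest ABA_embryo differences were 4.50 for Ta.2798.1.S1_x_at (an Em protein), 4.36 for TaAffx.46097.2.S1_at (Rab15) and 3.16 for Ta.2798.1.S1_s_at (an Em protein), each below the lowest value of the 7 probe sets of 4.96. Unlike the storage protein probe sets, Ta.2798.1.S1_x_at was about as bright in both control tissues, with means of 1568 in CK_embryo and 1784 in CK_endosperm. Of the 19 embryo marker probe sets, 12 fell in ABA_embryo, beside 3.08% of all probe sets called lower, and 1 rose, wheat germ agglutinin (Ta.147.1.S1_at), by 3.48 in log2. SAM called 9 of these 19. Their part in the storage protein values was not tested.

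The probe sets whose profile was most like that of the BJ299669 pair were found by the root mean square difference of log2 group means over the 6 groups, each profile centred on its own mean. The relatives took the next ranks after the pair itself, at 0.45 (Ta.154.4.S1_at) to 0.67 (Ta.154.1.S1_x_at). The nearest of the others were TaAffx.116853.1.S1_at (0.69), Ta.5686.1.S1_at (0.75), Ta.6016.1.S1_at (0.78), Ta.6187.1.S1_at (0.79), Ta.6187.1.S1_x_at (0.91), Ta.20518.2.S1_at (0.96), Ta.20518.3.S1_at (0.97) and TaAffx.74619.1.S1_at (1.05). Their ABA_embryo folds ran from 13.2 to 38.2, below the pair's 51.3 and 80.1; those of Ta.5686.1.S1_at and Ta.6016.1.S1_at rest on the floor of 10, since their CK_embryo means were 3.92 and 7.27. TaAffx.116853.1.S1_at went from a mean of 234.4 in CK_embryo to 4956 in ABA_embryo and stood at 14190 in CK_endosperm. The nearest with a gene name were Ta.351.2.S1_x_at (LOC778392, 1.38), Ta.64.1.S1_at (LOC543479, 1.39), Ta.62.1.S1_x_at (LOC543422, 1.82), Ta.129.1.S1_at (LOC543263, 1.91) and Ta.351.1.S1_at (LOC778392, 1.94). Ta.62.1.S1_x_at differs at ABA_embryo, where it stood at 185.5 against 103.6 in CK_embryo, and Ta.129.1.S1_at was higher in ABA_embryo, at 11760, than in CK_endosperm, at 3910.

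**Figure D5:**
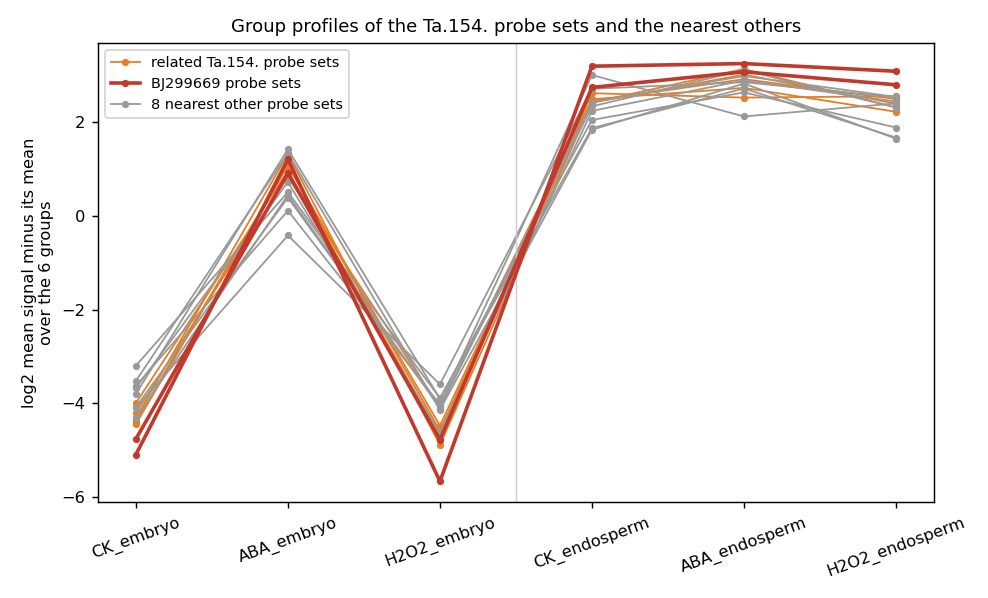
Log2 mean signal (signals below 10 set to 10) in the 6 groups, each centred on its mean over the groups, for the 2 BJ299669 probe sets, the 5 relatives and the 8 nearest other probe sets. All profiles are low in CK_embryo and H2O2_embryo, higher in ABA_embryo and highest in the endosperm groups, and Ta.154.3.S1_at spans the widest range of those drawn.

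The replicates of the 7 probe sets were unequally close. In CK_endosperm the coefficient of variation was 0.188% for Ta.154.1.S1_x_at and 0.525% for Ta.154.3.S1_x_at, where 0.260% and 0.847% of the equally bright probe sets (within 1.5-fold in mean) had a smaller one, and 10.9% for Ta.154.5.S1_x_at, where 97.4% did. The median of equally bright probe sets was 4.28% to 4.67% for these 3. In ABA_endosperm replicate 1 was the highest of its group in 6 of 7 probe sets and the lowest in Ta.154.3.S1_at.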

How the data were processed

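Total RNA of 18 samples was hybridised to the Affymetrix Wheat Genome Array. The deposited values are intensities on a linear scale that the authors made with MAS5, 1 column per array, with a trimmed mean of 500.1 (2% at each end) on each. The number of arrays, 3 per group, limits the precision. The 111 control probe sets were left out. A floor of 10 was applied before taking log2. Probe sets with a signal of at least 20 on 3 arrays entered a fit of 6 group means (limma 3.58.1, R 4.3.3, lmFit and eBayes with trend). Folds are on this log2 scale, and counts are of probe sets with an adjusted p under 0.05. The share of all probe sets whose arrays did not overlap between 2 groups was not counted. Statements on overlap therefore only describe the probe sets named. The members and lists were chosen with earlier results of these data known.

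Named probe sets are the listed pair and its relatives, the 8 nearest profiles and the 5 nearest with a gene name, and the 3 largest differences of each list. Ta.5650.1.S1_a_at, the 3 endosperm-bright probe sets with the highest shares and the list members named for their level, for not being called or for H2O2 were chosen after their values were seen. Lists were found by words in the RefSeq synonyms of 1273 probe sets with 1 gene symbol (1272 found in RefSeq, 59906 probe sets with none and 0 with several), a match made with the files at hand; 0 of the 7 has a symbol. No globulin, puroindoline or oleosin was found by these words. Accessions and UniGene clusters are from the study's tables. On simulated arrays with 57992 probe sets, limma recovered 36 of 100 changed by 1 in log2 and 75 of 100 changed by 2 in ABA_embryo minus CK_embryo, with 7 false calls. SAM recovered 0 and 30. The changed probe sets were drawn only from the brighter ones in CK_embryo, and the floor and filter were not applied. These recoveries therefore do not cover dim probe sets, such as most members of the prolamin and inhibitor lists. Alternatives were other floors, filters and scalings, no trend, only the arrays of a contrast, the replicate number as a block, SAM at 5% and each array left out.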

Additional observations from a re-analysis of the deposited data

Results flagged for a closer look

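In each of the 5 relatives the log2 difference of ABA from CK was larger in the embryo than in the endosperm, by the interaction term of limma. The log2 difference of the effects was 5.01 for Ta.154.1.S1_a_at (adjusted p = 7.99e-13), 4.80 for Ta.154.1.S1_x_at (adjusted p = 2.13e-09), 4.96 for Ta.154.4.S1_at (adjusted p = 2.79e-09), 4.94 for Ta.154.4.S1_x_at (adjusted p = 2.24e-12) and 5.05 for Ta.154.5.S1_x_at (adjusted p = 5.47e-11), all from limma. In each, 3 of 3 ABA_embryo arrays lay above the 3 CK_embryo arrays, a separation whose share over all probe sets was not counted. These probe sets share arrays and a cluster, so the 5 values are not 5 separate findings.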

How the results depend on the processing

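In ABA_embryo against CK_embryo, ABA_embryo against H2O2_embryo, the difference of the ABA effect and the 3 comparisons of tissues, 5 of 5 relatives were called under every alternative run. In ABA_endosperm against CK_endosperm the count of 2 became 0 without a trend, 0 with SAM, 3 with a filter at 100 and 3 with only the arrays of the contrast, and 0 to 3 with 1 array left out (3 without CK_embryo replicate 1 or 2 or any 1 of the H2O2_embryo arrays). In ABA_endosperm against H2O2_endosperm the count of 2 became 1 without a filter, 0 without a trend, 4 with only the arrays of the contrast, 1 with the replicate block and 0 with SAM, and 0 to 4 with 1 array left out. The count of 0 became 1 with a filter at 100 in H2O2_embryo against CK_embryo (0 to 2 with 1 array left out) and 1 with only the arrays of the contrast in H2O2_endosperm against CK_endosperm (0 to 1), and ran from 0 to 1 for the difference of the H2O2 effect. SAM called 107 of all probe sets in ABA_endosperm against CK_endosperm and 81 in ABA_endosperm against H2O2_endosperm, so it made few calls there. The cause was not tested. With its own SAM run the study reported far more changed genes in ABA-treated endosperm. Replicate numbers did not pair the arrays: the deviations of same-numbered arrays correlated at -0.0369 to 0.0738 over 45 pairs, and the block moved no other count.

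Uncalled differences near 0 changed sign. Quantile normalization gave 0.00306 for Ta.154.1.S1_x_at in H2O2_embryo, 0.29 for Ta.154.5.S1_x_at in ABA_endosperm, and 0.00967 for Ta.154.4.S1_at, 0.0586 for Ta.154.4.S1_x_at and 0.105 for Ta.154.5.S1_x_at in H2O2_endosperm. With 1 array left out, the H2O2_embryo differences ran from -0.396 to 0.227 for Ta.154.1.S1_x_at and from -0.151 to 0.0973 for Ta.154.4.S1_x_at, and the H2O2_endosperm differences from -0.00811 to 0.0807 for Ta.154.1.S1_a_at, -0.0862 to 0.0111 for Ta.154.4.S1_x_at and -0.125 to 0.0249 for Ta.154.5.S1_x_at. The ABA_embryo difference of Ta.154.3.S1_at was 6.16 to 6.43 with 1 array left out and that of Ta.154.3.S1_x_at 5.62 to 5.74. The counts of the prolamin, inhibitor and maturation lists in ABA_embryo were 0, 0 and 9 without H2O2_embryo replicate 1. Saturation of bright probe sets could not be checked from these signals.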
